A study of Mus musculus with 2 samples.

Results

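The genes described here are 10 immediate early genes, *Fos*, *Fosb*, *Jun*, *Junb*, *Jund*, *Egr1*, *Ier2*, *Atf3*, *Btg2* and *Zfp36*, in testicular cells of a control and a *Brca1* vKO mouse. They were taken by name from the 32285 genes of the count tables and are not a group found in the data. The data are droplet scRNA-seq counts from 1 control library and 1 *Brca1* vKO library, each from PD7 testes digested with collagenase IV and TrypLE Express. *Brca1* vKO mice carry *Brca1* f/- with Vasa-Cre, a recombinase driven by the promoter of the germ cell gene *Ddx4*, so that *Brca1* is lost in germ cells while somatic cells keep the floxed allele beside the deleted one. The controls were littermates of the same age, and their genotype beyond control is not given in the sources used here. With 1 library for each genotype, no difference between genotypes could be tested, and every interval below is a 95% interval that covers counting error only. The genotype, the mouse and the way the suspension was made cannot be told apart.

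Immediate early genes are transcribed within minutes of a stimulus, because their promoters are bound by factors that are already present in the resting cell and are activated by kinases. SRF with its ELK partners, acting on the CArG box, and CREB, acting on the cAMP response element (CRE), are the usual ones. FOS and JUN family proteins form the AP-1 dimer. Enzymatic digestion of tissue is itself a well-known stimulus for this program, so in dissociated cells these genes are also read as markers of handling. *Btg2* and *Atf3* are in addition known targets of p53.

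The promoters of 8 of the 10 genes were matched by symbol in a RefSeq table (build GRCm38.p6, the assembly of mm10). The 250 bases before the annotated start are printed here 5′ to 3′ for 4 genes. *Btg2* and *Zfp36* are shown because theirs hold a complete CRE (TGACGTCA) and a CArG box, and *Fos* and *Junb* because theirs hold only the 5-base stretch TGACG. Capitals mark these matches on either strand. The windows are chr1:134079156-134079405 (minus strand), chr7:28379229-28379478 (minus strand), chr12:85473640-85473889 (plus strand) and chr8:84978749-84978998 (minus strand). In the GENCODE M21 annotation those of *Fos*, *Junb* and *Btg2* lie upstream of the gene, and that of *Zfp36* lies within the span of its longest gene model (chr7:28376784-28380253).
Btg2: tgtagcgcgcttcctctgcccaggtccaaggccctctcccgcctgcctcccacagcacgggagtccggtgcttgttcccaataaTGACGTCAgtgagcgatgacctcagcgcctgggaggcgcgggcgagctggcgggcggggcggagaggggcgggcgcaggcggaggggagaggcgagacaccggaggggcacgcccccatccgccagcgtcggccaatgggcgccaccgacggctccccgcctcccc
Zfp36: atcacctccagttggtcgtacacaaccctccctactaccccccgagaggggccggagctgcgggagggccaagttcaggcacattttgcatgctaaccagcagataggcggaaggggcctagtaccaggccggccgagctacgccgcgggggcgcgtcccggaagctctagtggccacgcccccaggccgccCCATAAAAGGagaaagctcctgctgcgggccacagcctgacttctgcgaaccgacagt
Fos: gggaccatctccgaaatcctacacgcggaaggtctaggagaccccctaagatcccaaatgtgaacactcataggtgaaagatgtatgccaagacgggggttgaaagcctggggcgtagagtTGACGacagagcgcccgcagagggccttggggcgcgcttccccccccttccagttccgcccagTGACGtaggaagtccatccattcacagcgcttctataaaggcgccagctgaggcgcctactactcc
Junb: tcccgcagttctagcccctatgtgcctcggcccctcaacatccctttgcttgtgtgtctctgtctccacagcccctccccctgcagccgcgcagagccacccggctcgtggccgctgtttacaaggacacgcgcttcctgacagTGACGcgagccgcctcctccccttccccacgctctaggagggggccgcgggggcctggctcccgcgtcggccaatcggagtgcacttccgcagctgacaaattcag
The complete CRE of *Btg2* lies 166 to 159 bases before the start and contains TGACG on both strands. Of 32851 promoters of the same length, 1.55% held a complete CRE, and *Btg2* was the 1 match among the 8 genes. A CArG box was found in 1.47% of all promoters and, among the 8 genes, in *Zfp36* alone, 58 to 49 bases before the start. The AP-1 site TGANTCA was in 6.75% of all promoters and in 0 of the 8. TGACG alone, which was added to the search after the sequences had been seen, was in 17.8% of all promoters and in 5 of the 8, namely *Fos*, *Fosb*, *Junb*, *Atf3* and *Btg2*. These are matches of letters within a short window and not measured binding.

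The control table held 5812 barcodes and 120568700 UMIs (unique molecular identifiers, each counting 1 captured RNA molecule), and that of *Brca1* vKO held 9456 barcodes and 165062097 UMIs. The authors loaded more *Brca1* vKO cells. After the filters of at least 750 genes and at most 10% mitochondrial UMIs, 5077 control and 8712 *Brca1* vKO cells were kept, with medians of 16917 and 12970.5 UMIs. The libraries shared 21 barcodes, 16 of them among kept cells. Clusters were named by 4 markers per class, which gave 1064 control and 273 *Brca1* vKO germ cells (*Ddx4*, *Dazl*), 2011 and 4065 Sertoli cells, 950 and 2188 stromal cells, 545 and 1398 myoid cells, 47 and 124 Leydig cells, and 27 and 36 endothelial cells. In germ cells *Brca1* stood at 69.8 CPM (UMIs per 1000000 UMIs of the class) in the control and 43.8 CPM in *Brca1* vKO (ratio 0.63, 0.56 to 0.70), at 29.8 and 25.8 CPM in Sertoli cells (ratio 0.87), and at 24.97 and 13.7 CPM in stromal cells (ratio 0.55, 0.48 to 0.63). The lower level was thus not confined to germ cells. Transcripts of the recombined allele can still be counted. Markers of other cells also moved between the libraries. In germ cells the summed level of 5 red blood cell markers was 655 and 45.3 CPM, and that of 4 neutrophil markers 3.02 and 19.3 CPM. The red blood cell markers were also lower in *Brca1* vKO in Sertoli (465 and 202 CPM), stromal (992 and 102 CPM) and myoid cells (2593 and 98.5 CPM). The part of these differences in the results below was not tested.

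All 10 genes were at their lowest in germ cells, in both libraries. In each library 8 of them were highest in stromal cells, and the other two, *Junb* and *Btg2*, in peritubular myoid cells. The 10 genes together took up a median of 924 CPM per germ cell in the control, against 6076 in Sertoli, 16605 in stromal and 12564 in myoid cells. The corresponding medians in *Brca1* vKO were 1515, 7722, 20941 and 16813 CPM. The class of a cell therefore went with a far wider difference in level than the library did. The spread among cells of 1 class was also wide, with the 10th and 90th percentile of control stromal cells at 1614 and 34896 CPM.

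**Figure D1:**
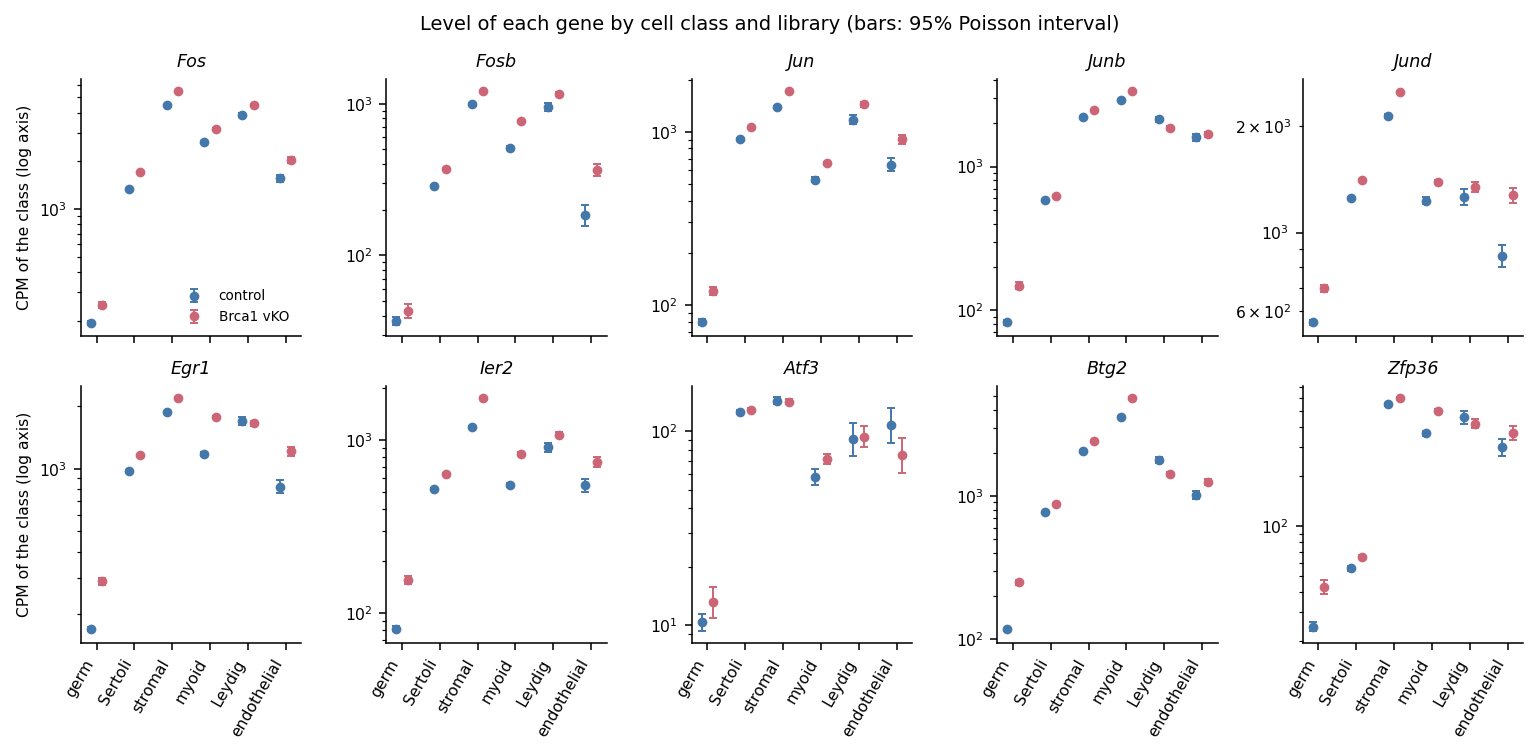
Level of each of the 10 genes in 6 cell classes, as CPM on log axes whose ranges differ between panels, for the control (blue) and the *Brca1* vKO library (red); bars are 95% Poisson intervals of the summed counts. Germ cells are lowest in every panel, and the *Brca1* vKO point lies above the control point in germ, Sertoli and myoid cells for all 10 genes.

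A gene was counted as higher in *Brca1* vKO when its ratio of CPM to the control was at least 1.5 and the interval left out 1, and as lower when the ratio was at most the inverse. All 10 genes had the 50 UMIs required in every class. In germ cells 6 of the 10 were higher and 0 lower, whereas 8.27% of all 15054 genes tested there were higher and 11.9% lower. The 6 were *Btg2*, *Ier2*, *Junb*, *Zfp36*, *Egr1* and *Jun*. The median ratio of the 10 genes was 1.60, beside 0.97 over all genes. In Sertoli cells 0 of the 10 passed in either direction, with 2.64% of all genes higher and 3.38% lower, and in stromal cells 0 passed, with 1.83% higher and 2.1% lower. In myoid cells 3 passed as higher (*Fosb*, *Egr1* and *Ier2*) and 0 as lower, with 2.82% and 1.82% of all genes. In Leydig cells 0 passed, with 6.07% and 6.53% of all genes. In endothelial cells 1 passed as higher, *Fosb*, and 0 as lower, with 5.9% and 4.12% of all genes. The count in germ cells rests on the cells taken in. It was 3 (*Btg2*, *Egr1* and *Ier2*) among germ cells with at most 5% mitochondrial UMIs, and 8 when cells marked as doublets were removed. The shares of all genes were not computed for these sets of cells.

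No gene of the 10 was higher by this rule in all 6 classes. The 4 that were higher in germ cells and in no other class were *Jun*, *Junb*, *Btg2* and *Zfp36*. Of the 5956 genes with enough UMIs in all 6 classes, 4.03% met this rule. It rests on the 1.5-fold limit and not on the difference between classes: the germ ratio of *Jun* was 1.08 times its endothelial ratio (0.95 to 1.22), whereas those of *Junb*, *Btg2* and *Zfp36* exceeded the ratio of each somatic class beyond the interval. Smaller differences in the same direction were counted by the interval alone. Of the 60 pairs of a gene and a class, 51 had an interval wholly above 1, 3 had one wholly below 1 and 6 included 1. In counts this deep, intervals for counting error leave out 1 at small differences. Those of 22.3% of all genes lay above 1 and of 28.1% below in germ cells, where all 10 of these genes lay above. In Sertoli cells 9 of the 10 lay above 1 (22.8% of all genes above and 21.1% below), in stromal cells 9 (13.6% and 14.4%) and in myoid cells 10 (11.1% and 12%). In Leydig cells 5 lay above and 2 below (11.4% and 11.7%), and in endothelial cells 8 above and 1 below (9.78% and 8.59%). *Fos*, *Fosb*, *Jun*, *Jund* and *Ier2* lay above 1 in all 6 classes, as did 0.302% of the 5956 genes. The ratios ran from 1.03 to 1.30 in Sertoli cells and from 0.99 to 1.46 in stromal cells, the largest classes, and their medians there were 1.17 and 1.18.

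**Figure D2:**
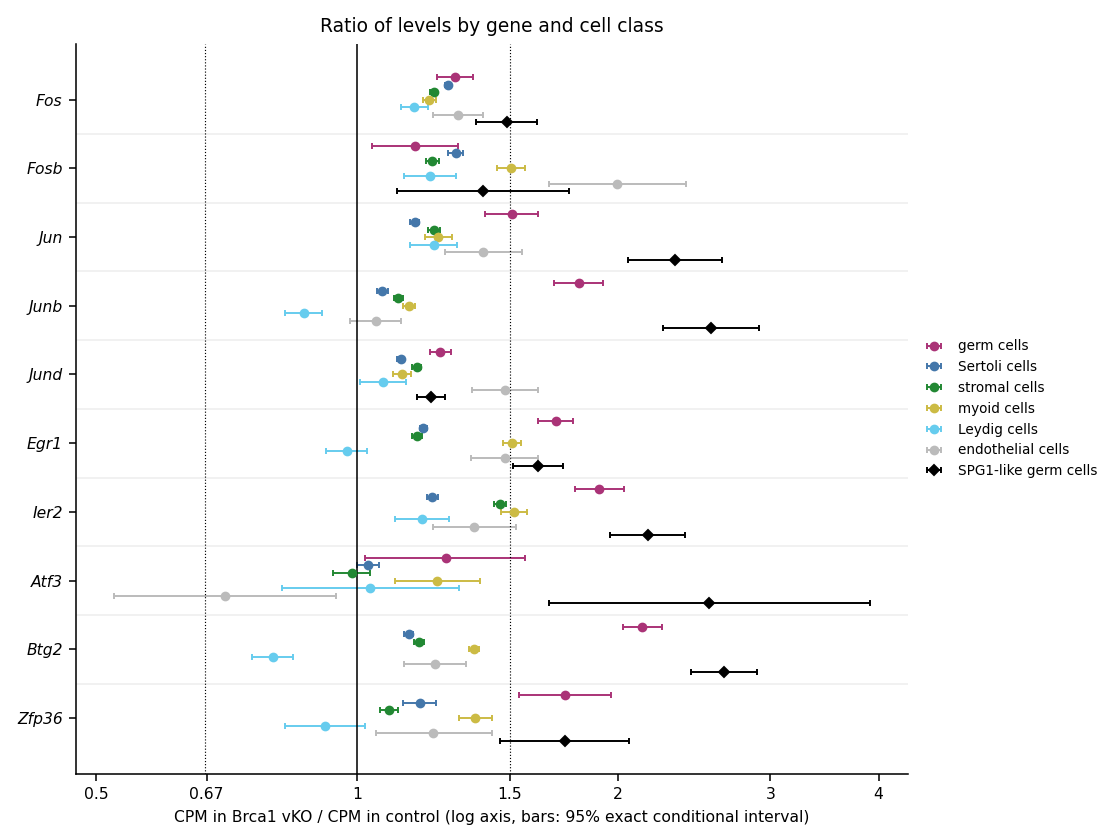
Ratio of CPM in *Brca1* vKO to control (log axis) for each gene in 6 cell classes and in SPG1-like germ cells (black diamonds), with 95% exact conditional intervals; the solid line marks 1 and the dotted lines the 1.5-fold limits. Most points lie to the right of 1, the SPG1-like points of *Jun*, *Junb*, *Ier2*, *Atf3* and *Btg2* lie between 2.16 and 2.65, and the Leydig points of *Junb* and *Btg2* lie to its left.

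The germ cell class itself was mixed. It was clustered again, and the markers named sub-clusters with 343 control and 181 *Brca1* vKO cells as SPG1-like (*Gfra1*, *Etv5*). SPG1 is the type that contains the spermatogonial stem cells, and SPG2 that of the progenitor spermatogonia. The control SPG1-like cells also held SPG2 markers, with *Upp1* at 36.8 CPM and *Sox3* at 29.3 CPM. In the whole control germ class these stood at 27.7 and 45.8 CPM, and in *Brca1* vKO SPG1-like cells at 3.96 and 7.18 CPM. A sub-cluster led by *Kit* had 142 and 11 cells. In 2 sub-clusters of 145 control and 28 *Brca1* vKO cells, led by Sertoli genes such as *Clu* or by stromal and myoid genes such as *Dcn* and *Acta2*, Scrublet marked 53.1% and 85.7% of cells as likely doublets. The 10 genes together were at a median of 2883 CPM in these control cells and 850 in the other control germ cells. Without them, 8 of the 10 genes were higher in *Brca1* vKO and 0 lower, with 9.35% and 13.5% of all genes. In SPG1-like cells, 7 were higher and 0 lower, with 8.16% and 11.3% of all genes. These sub-clusters were left out after the values had been seen. The SPG1-like cells of the libraries were not alike in their sub-type markers either, since 3 of 7 SPG1 markers were higher and 6 of 6 SPG2 markers lower in *Brca1* vKO. Of the SPG1-like cells, 208 control and 79 *Brca1* vKO cells lay in a sub-cluster led by *Glis3*, and 135 and 102 in a sub-cluster led by *Ephb1* in which 8 cell cycle genes were summed at 2215 and 2289 CPM, against 426 and 468 CPM in the former. The libraries thus differed in their share of cycling cells, and the sub-clusters were also counted apart after seeing the data. In the sub-cluster led by *Glis3*, 8 of the 10 genes were higher and 0 lower, with 8.01% and 9.43% of all genes, and *Atf3* had too few UMIs. In that led by *Ephb1*, 7 were higher and 0 lower, with 7.35% and 10% of all genes. *Btg2* had ratios of 2.704 and 2.63 in them, *Junb* 2.99 and 2.22, *Jun* 2.67 and 1.997, and *Ier2* 2.74 and 1.76. *Fos* (1.803 and 1.25) and *Fosb* (2.04 and 1.01) were higher by the rule in the first alone. For each gene, the level over all SPG1-like cells is given beside that of the whole class.

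*Fos* and *Fosb* encode partners of the JUN proteins in AP-1. *Fos* was at 193 CPM in control and 251 in *Brca1* vKO germ cells (ratio 1.30, 1.24 to 1.36), and at 100.4 and 149 CPM in SPG1-like cells (ratio 1.49, 1.37 to 1.61). In somatic cells it was at 1334 and 1699 CPM in Sertoli, 4474 and 5481 in stromal, 2622 and 3177 in myoid, 3852 and 4486 in Leydig, and 1554 and 2029 in endothelial cells. Its order from stromal to Leydig, myoid, endothelial, Sertoli and germ cells was the same in both libraries, with no overlap of neighbouring intervals. Over the 6 classes the ratios of *Fos* ran from 1.16 in Leydig to 1.31 in endothelial cells. The germ ratio was 1.02 times the Sertoli ratio (0.97 to 1.07). Leaving out the doublet-rich sub-clusters took its germ ratio to 1.65 (1.54 to 1.77). *Fosb* was at 37.0 and 43.1 CPM in germ cells (ratio 1.17, 1.04 to 1.31) and at 13.2 and 18.5 CPM in SPG1-like cells (ratio 1.40, 1.11 to 1.76). Its ratio was 1.505 in myoid cells (513 and 772 CPM) and 1.99 in endothelial cells (185 and 368 CPM), and between 1.21 and 1.30 in Sertoli, stromal and Leydig cells. The myoid ratio lay at the 1.5-fold limit. In the 27 and 36 endothelial cells, 4 myoid markers stood at 225 and 737 CPM as well, and when cells were clustered without batch correction the endothelial ratio of *Fosb* turned to 0.51, so its direction there depends on which cells are counted. Of the germ markers in endothelial cells, *Dazl* stood at 62.3 and 0.80 CPM and *Ddx4* at 40.8 and 2.39 CPM, whereas *Zbtb16* was at 10.2 and 12.8 CPM. Their part in the endothelial ratios of the 10 genes was not tested. The levels of *Fosb* in stromal and Leydig cells did not differ beyond their intervals in either library.

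The JUN family genes differed from each other. *Jun*, whose product binds DNA as a homodimer or with FOS, was at 79.8 and 120.3 CPM in germ cells (ratio 1.51, 1.40 to 1.62). In SPG1-like cells it was at 32.9 and 76.5 CPM (ratio 2.33, 2.05 to 2.64). Its ratios in the 5 somatic classes were 1.16 to 1.40, and the SPG1-like ratio was 1.66 times the endothelial ratio (1.42 to 1.95). *Junb*, a family member often set against JUN in control of the cell cycle, was at 82.2 and 148 CPM in germ cells (ratio 1.803, 1.69 to 1.92). In SPG1-like cells it was at 29.8 and 76.4 CPM (ratio 2.56, 2.25 to 2.91). The somatic ratios of *Junb* were 1.07 in Sertoli (587 and 628 CPM), 1.12 in stromal (2206 and 2461 CPM) and 1.15 in myoid cells (2922 and 3351 CPM). In Leydig cells *Junb* was lower in *Brca1* vKO, at 2135 and 1852 CPM (ratio 0.87, 0.83 to 0.91), a difference short of the 1.5-fold limit. The Leydig cells of the libraries also differed in markers of other cells, with 4 Sertoli markers at 1239 and 736 CPM and 4 stromal markers at 610.0 and 1096 CPM. Cell cycle genes were higher in *Brca1* vKO there, with *Mki67* at 18.5 and 59.0 CPM and *Top2a* at 34.4 and 130 CPM. Of the Leydig markers, *Cyp17a1* stood at 1396 and 2590 CPM and *Cyp11a1* at 1778 and 1117 CPM. The part of these differences was not tested. *Jund*, the family member that is expressed without a stimulus in most cells, had the flattest pattern. It was at 558 and 696 CPM in germ cells (ratio 1.25, 1.21 to 1.28), at 535 and 651 CPM in SPG1-like cells (ratio 1.22, 1.17 to 1.26), and between 861 and 2494 CPM in somatic classes, where its ratios were 1.07 to 1.48. Stromal cells stood 3.82 times above germ cells for *Jund* in the control, whereas the highest class stood 10.98 to 35.6 times above germ cells for the other 9 genes.

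*Egr1* on chromosome 18 and *Ier2* on chromosome 8 follow growth factor signals through ERK. *Egr1*, a zinc finger transcription factor, was at 169.7 and 288 CPM in germ cells (ratio 1.69, 1.62 to 1.78) and at 135 and 219 CPM in SPG1-like cells (ratio 1.62, 1.51 to 1.73). Myoid cells had a ratio of 1.51 (1.47 to 1.55), at 1178 and 1778 CPM, and endothelial cells one of 1.48. The germ ratio of *Egr1* was 1.12 times the myoid ratio (1.07 to 1.18). In Leydig cells the levels of 1702 and 1655 CPM did not differ beyond the interval (ratio 0.97, 0.92 to 1.03). Set against myoid cells, the SPG1-like ratio of *Egr1* was 1.07 times as large, with an interval from 0.998 to 1.15. *Ier2*, which encodes a nuclear protein, was at 81.7 and 156 CPM in germ cells (ratio 1.90, 1.79 to 2.03) and at 53.01 and 115 CPM in SPG1-like cells (ratio 2.16, 1.96 to 2.39). It also had the highest ratio of the 10 genes in stromal (1.46) and myoid cells (1.52), so that its excess was not confined to germ cells. The SPG1-like ratio of *Ier2* was 1.77 times the Sertoli ratio (1.60 to 1.96).

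*Atf3*, a transcription factor of the stress response, was the least expressed of the 10 genes in germ cells, with 360 control and 120 *Brca1* vKO UMIs (10.4 and 13.1 CPM, ratio 1.27, 1.02 to 1.56). In SPG1-like cells only 44 and 50 UMIs were counted (2.88 and 7.33 CPM), and the ratio of 2.55 had an interval from 1.67 to 3.91. *Atf3* differed little in the larger somatic classes, at 125 and 129 CPM in Sertoli and 144 and 141 CPM in stromal cells. In endothelial cells it was lower, at 108 and 75.7 CPM from 95 UMIs in each library (ratio 0.70, 0.52 to 0.95). *Btg2*, an antiproliferative gene, had the highest ratio of the 10 in the whole germ class. It was at 117 and 249 CPM in germ cells (ratio 2.14, 2.03 to 2.25) and at 62.4 and 166 CPM in SPG1-like cells (ratio 2.65, 2.43 to 2.89). Outside the doublet-rich sub-clusters its ratio of 2.82 was below those of *Atf3* (3.16) and *Jun* (2.86). The levels of *Btg2* were 767 and 879.9 CPM in Sertoli, 2056 and 2422 in stromal, 3548 and 4839 in myoid, and 1017 and 1250.3 in endothelial cells, with ratios of 1.15 to 1.36. In Leydig cells *Btg2* was lower, at 1776 and 1419 CPM (ratio 0.80, 0.76 to 0.84). *Btg2* had the same order of classes in both libraries, from myoid to stromal, Leydig, endothelial, Sertoli and germ cells, without overlap of neighbouring intervals. *Zfp36* encodes tristetraprolin, which binds AU-rich elements and speeds the decay of mRNAs, those of immediate early genes among them. It was at 24.6 and 42.7 CPM in germ cells (ratio 1.74, 1.54 to 1.96) and at 20.6 and 35.8 CPM in SPG1-like cells (ratio 1.74, 1.46 to 2.06). Its ratios were 1.09 in stromal, 1.18 in Sertoli and 1.37 in myoid cells.

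The ratios in germ cells were set directly against those in Sertoli cells, the neighbours of germ cells in the tubule. For the whole germ class, the germ ratio exceeded the Sertoli ratio beyond the counting interval for 7 of the 10 genes, fell below it for 0 and was level within it for 3. In SPG1-like cells it exceeded the Sertoli ratio for 9 genes. The quotient of the 2 ratios was 2.48 for *Atf3* (1.65 to 3.72), 2.40 for *Junb* (2.11 to 2.72), 2.31 for *Btg2* (2.12 to 2.52) and 1.998 for *Jun* (1.77 to 2.26). It was close to 1 for *Jund* (1.08, 1.04 to 1.13), and for *Fosb* the interval included 1 (1.08, 0.86 to 1.35). Against myoid cells the germ ratio was above for 8 genes and below for 1, *Fosb* (0.78, 0.69 to 0.87), and against endothelial cells above for 6 and below for 2, *Fosb* (0.58, 0.47 to 0.72) and *Jund* (0.84, 0.77 to 0.92). The share of all genes that passes this rule was not computed, so these counts do not set the 10 genes apart from other genes.

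The difference was seen from the lower to the upper end of the SPG1-like cells. The summed level of the 10 genes had a 10th percentile of 563, a median of 958 and a 90th percentile of 1508 CPM in control SPG1-like cells, and 940, 1447 and 2301 CPM in *Brca1* vKO. The 10% of cells with most of these UMIs held 20.9% and 19.6% of them. These cells had medians of 42762 and 35733 UMIs. When each was thinned to 2000 UMIs, the 10 genes together averaged 1.92 UMIs per control cell and 2.95 per *Brca1* vKO cell. Mitochondrial UMIs, whose share tends to be high in damaged cells, made up medians of 5.76% and 6.01%. Among SPG1-like cells with over 3% and at most 5% mitochondrial UMIs (83 and 35 cells) the summed ratio was 1.39 (1.31 to 1.46), and above 5% (257 and 146 cells) it was 1.58 (1.53 to 1.62). In Sertoli cells the summed ratio was 1.04 up to 3% mitochondrial UMIs (65 and 51 cells), 1.13 from 3% to 5%, and 1.26 above 5%, whereas in stromal cells it was 1.20, 1.09 and 0.95.

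**Figure D3:**
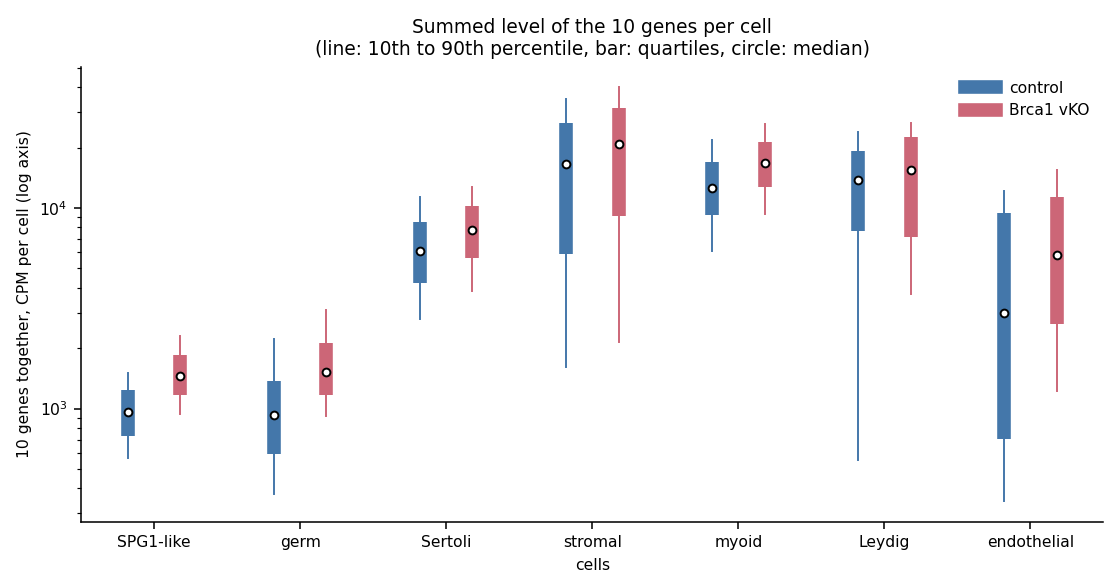
Summed CPM of the 10 genes per cell on a log axis, by cell class, for the control (blue) and *Brca1* vKO (red); thin lines run from the 10th to the 90th percentile, bars between the quartiles, and circles are medians. The SPG1-like median moves from 958 to 1447 CPM, and both germ columns lie well below the Sertoli, stromal and myoid columns.

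Because somatic cells held up to 35.6 times more of these transcripts than germ cells, a little somatic RNA in a germ cell droplet could add to them. The 16 markers of Sertoli, stromal, myoid and Leydig cells were therefore counted in the SPG1-like cells. Together they stood at 111 and 185 CPM in control and *Brca1* vKO cells, which is 1.99% and 3.40% of their level in the somatic cells of the same library. At the same percentages, *Fos* would stand at 43.4 and 91.5 CPM, of the 100.4 and 149 CPM measured. What lay beyond this was 57.0 CPM for the control and 57.8 CPM for *Brca1* vKO, a ratio of 1.01. *Fosb* would stand at 9.37 and 20.5 CPM, so that its measured 18.5 CPM in *Brca1* vKO did not exceed that level. By this calculation, little or no higher level of *Fos* and *Fosb* in *Brca1* vKO was left beyond the somatic percentage in SPG1-like cells. This did not hold for *Fos* in other sets of germ cells. Its part beyond was 37.1 and 51.9 CPM outside the doublet-rich sub-clusters, a ratio of 1.40. In the whole germ class it was 2.42 and 32.4 CPM. The markers behind the calculation did not move alike in SPG1-like cells, with *Clu* at 27.6 and 57.5 CPM and *Dlk1* at 28.96 and 18.9 CPM. No interval was computed for the part beyond, and whether stray RNA made the difference was not tested.

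For the other genes some of the difference in SPG1-like cells lay beyond the somatic percentage. *Btg2* would stand at 26.4 and 54.5 CPM and was measured at 62.4 and 166, a ratio of 3.08 for the part beyond. The ratio of the part beyond was 2.77 for *Jun* (19.6 and 39.6 CPM of 32.9 and 76.5), 2.13 for *Ier2*, 1.69 for *Zfp36*, 1.52 for *Egr1* and 1.18 for *Jund*. *Junb* in the control was measured at 29.8 CPM with 23.7 CPM at the somatic percentage, and *Atf3* at 2.88 with 2.44, so that most of their control counts lay within that level. In a calculation added after seeing the data, the percentage was set for each somatic class from its own 4 markers. There *Fos* had a ratio of 0.97 for the part beyond in SPG1-like cells, *Egr1* 1.54, *Zfp36* 1.84, *Ier2* 2.23, *Jun* 3.63 and *Btg2* 3.63. For germ cells outside the doublet-rich sub-clusters, the ratio of *Fos* was 3.77. *Junb* was below that level in the control (33.6 CPM) and 21.05 CPM above it in *Brca1* vKO. The calculation takes stray RNA to have the make-up of the somatic cells, and germ cells may transcribe some of the markers themselves. In the whole control germ class, the percentage from all 16 markers put *Junb* at 104 CPM, above the 82.2 CPM measured. The percentage can thus overstate the stray RNA of these genes.

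**Figure D4:**
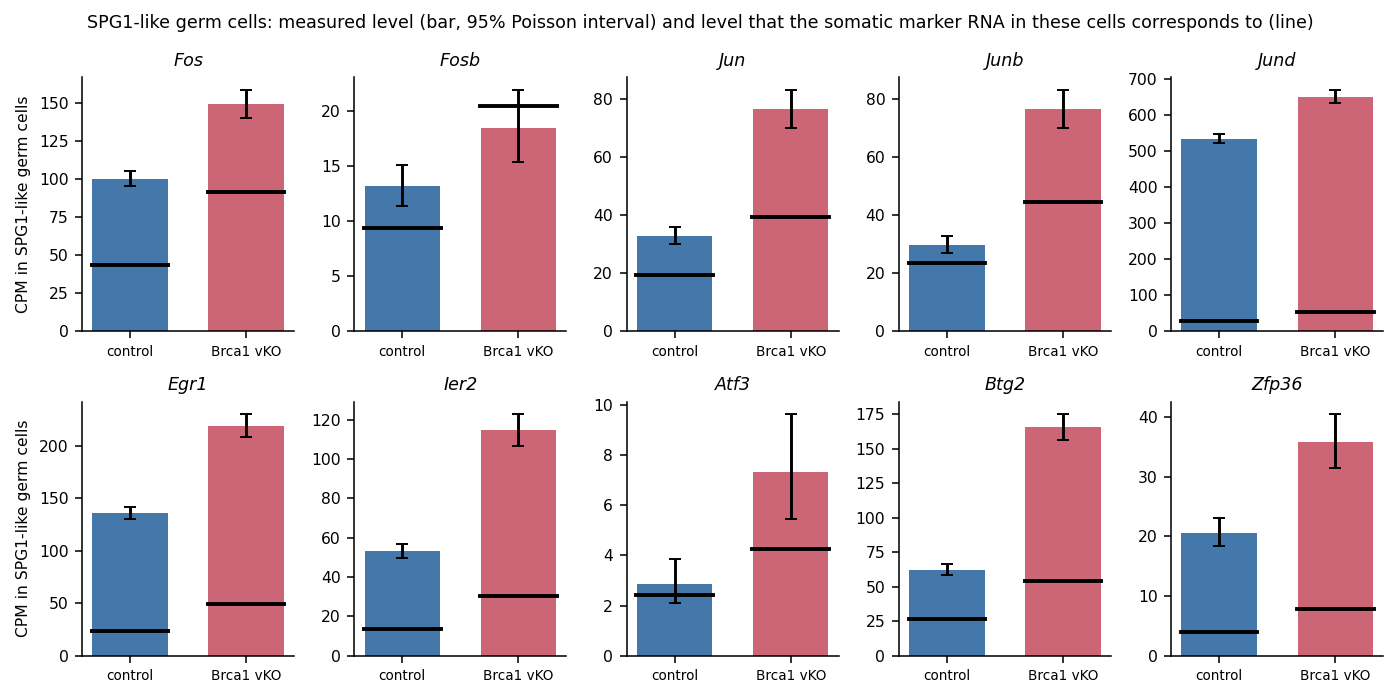
Level of each gene in SPG1-like germ cells of the control (blue) and *Brca1* vKO library (red), in CPM on linear axes from 0 that differ between panels, with 95% Poisson intervals; the black line is the level each gene would have at the percentage of somatic marker RNA found in the same cells. The line reaches the bar for *Fosb* in *Brca1* vKO, takes up most of the control bars of *Junb* and *Atf3*, and is far below the bars of *Jund* and *Egr1*.

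The remaining germ cells were few in *Brca1* vKO. In the *Kit*-led sub-cluster (142 and 11 cells), 7 of the 10 genes were higher and 0 lower, with 7.22% and 8.15% of all genes. *Egr1* was at 32.9 and 187 CPM there (250 and 101 UMIs, ratio 5.69, 4.47 to 7.19), *Ier2* at 29.9 and 126 CPM (ratio 4.22, 3.17 to 5.55) and *Btg2* at 56.0 and 180 CPM (ratio 3.21, 2.55 to 4.01). *Atf3* had 10 and 3 UMIs and was not assessed. In a germ cluster with medians of 3685 and 3542 UMIs (413 and 57 cells), 0 genes were higher and 2 lower, *Jun* at 99.8 and 58.6 CPM and *Junb* at 127 and 81.0 CPM, with 6.33% and 9.56% of all genes. The 16 somatic markers made up 21.7% of their somatic level in these control cells and 5.27% in *Brca1* vKO, and their part in the lower *Jun* and *Junb* was not tested. At 21.7%, *Fos* would stand at 472 CPM and *Junb* at 258 CPM, above the 176 and 127 CPM measured in these control cells. Of the 10 genes, only *Jund* was measured above its level at that percentage. In the doublet-rich sub-clusters 2 genes were higher, *Btg2* at 387 and 658 CPM and *Junb* at 343 and 522 CPM, and 0 lower, with 7.52% and 5.9% of all genes.

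The smaller somatic difference was present in cycling and in non-cycling clusters. By the 1.5-fold limit, 0 of 10 genes were higher or lower in the non-cycling Sertoli cluster (median ratio 1.20, with 2.28% and 3.3% of all genes), in the cycling Sertoli cluster (1.14, with 2.54% and 2.21%), in the non-cycling stromal cluster (1.17, with 1.94% and 1.99%) and in the cycling stromal cluster (1.19, with 2.12% and 2.02%). Scrublet marked 34.0% of control and 41.2% of *Brca1* vKO cells of the last cluster as likely doublets. The sum of the somatic classes also had 0 in either direction (median 1.198, with 1.8% and 3.44%). In 47 and 69 pericytes, the contractile cells of small vessels, 1 gene was higher, *Fos* at 3310 and 5038 CPM, and 0 lower, with 6.5% and 5% of all genes. Neutrophils, of which there were 51 and 143, had intervals wholly below 1 for 4 of the 10 genes and wholly above 1 for 3 (*Fosb*, *Atf3* and *Btg2*, with ratios of 1.16 to 1.20). *Fos* was at 2694 and 2151 CPM there (ratio 0.80, 0.76 to 0.84), *Junb* at 2939 and 2309 CPM (ratio 0.79, 0.75 to 0.83) and *Zfp36* at 1031 and 701 CPM (ratio 0.68, 0.62 to 0.74). By the 1.5-fold limit 0 of the 10 were higher or lower, with 15.4% and 7.07% of all genes. In clusters of 335 and 416 cells that scored highest for Sertoli markers but were too shallow to be named (medians of 3545 and 2783 UMIs), 8 genes were higher and 0 lower, with 10% and 1.29% of all genes.

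Further genes of the response were taken from fixed lists. Of 40 other immediate early genes, 15 were higher and 2 lower in germ cells, where 8.27% and 11.9% of all genes were, with a median ratio of 1.39 beside 0.97, and in SPG1-like cells 16 of the 35 with enough UMIs were higher and 1 lower. In Sertoli cells 2 of 39 were higher and 2 lower (median 1.04), in stromal cells 4 of 39 higher and 0 lower (median 1.14), and in myoid cells 3 of 38 higher and 0 lower (median 1.26). The 3 genes with the highest germ ratio were *Egr3* (4.89 and 20.6 CPM, ratio 4.21), *Trib1* (6.13 and 21.7 CPM, ratio 3.54) and *Egr2* (11.8 and 39.3 CPM, ratio 3.34). *Egr2* and *Egr3* are paralogs of *Egr1*, and *Trib1* encodes a pseudokinase. *Egr3* was also higher in Sertoli cells (4.002 and 6.52 CPM, ratio 1.63). At the other end were *Dusp2* (8.23 and 2.74 CPM, ratio 0.33), which encodes a phosphatase of MAP kinases, and *Ccn2* (8.49 and 5.26 CPM, ratio 0.62), a target of YAP. *Gadd45b* had a germ ratio of 0.74 and was within the limits. In SPG1-like cells *Dusp2* was at 2.42 and 3.08 CPM, so its lower level in the whole class was not seen there. In Sertoli cells *Nr4a3* (17.9 and 28.5 CPM, ratio 1.59) was higher, and *Ccn2* (31.0 and 18.2 CPM, ratio 0.59) and *Egr4* (1.37 and 0.80 CPM, ratio 0.59) were lower. *Nr4a2* (ratio 1.40) and *Ier3* (ratio 0.78) were within the limits.

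Genes upstream of and around the 10 had median ratios closer to 1 in germ cells, although a larger share of them was higher than of all genes. Of 11 further AP-1 partners, 3 were higher and 0 lower in germ cells (median ratio 1.10), where 8.27% and 11.9% of all genes were. *Batf* was at the bottom (2.22 and 1.20 CPM, ratio 0.54, 0.26 to 1.03). Of 22 genes of the ERK, SRF and CREB pathways, 6 were higher and 0 lower (median 1.0). The highest was *Spry4*, a feedback inhibitor that ERK itself induces, at 5.47 and 21.7 CPM (ratio 3.96), and the lowest *Map2k2*, a kinase of the ERK pathway, at 205 and 154 CPM (ratio 0.75). In Sertoli and in stromal cells 0 of these 22 passed in either direction. *Spry4* was at 6.94 and 6.28 CPM in Sertoli cells.

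The lists of other stress responses differed among themselves in germ cells. Of 15 heat shock genes, which answer to unfolded protein and to warming, 1 was higher and 2 lower (median ratio 1.11), shares near the 8.27% and 11.9% of all genes there. The chaperone gene *Hspa1a* was lowest, at 8.72 and 4.38 CPM (ratio 0.50), and its co-chaperone gene *Bag3* highest, at 5.90 and 12.6 CPM (ratio 2.13). Of 10 genes of the integrated stress response with enough UMIs, 3 were higher and 2 lower (median 1.01), from *Trib3* (ratio 0.45) to *Ddit3* (ratio 3.16). *Ddit3*, which encodes CHOP, was at 10.6 and 33.4 CPM in germ cells and 38.1 and 45.1 CPM in Sertoli cells. It was also higher in myoid cells (37.1 and 69.3 CPM, ratio 1.87). Its ratio was 1.40 in stromal, 0.86 in Leydig and 0.77 in endothelial cells, all within the limits. Of 18 p53 targets, 14 were higher and 0 lower in germ cells (median 2.10), from *Sesn1* (ratio 0.98) to *Cdkn1a* (ratio 12.0), against 0 higher and 1 lower of 19 in Sertoli cells.

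**Figure D5:**
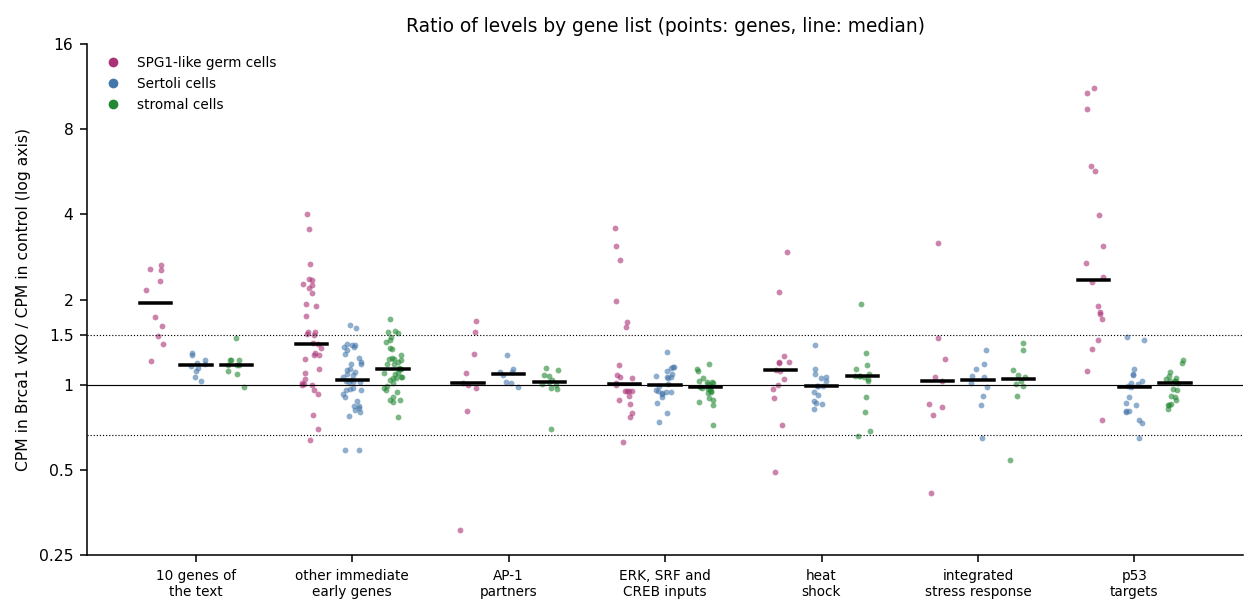
Ratio of CPM in *Brca1* vKO to control (log axis) for the genes with at least 50 UMIs of each list, in SPG1-like germ cells (purple), Sertoli cells (blue) and stromal cells (green); each point is a gene, black lines are medians and dotted lines the 1.5-fold limits. The SPG1-like medians of the 10 genes and of the p53 targets, 1.95 and 2.35, stand above the others, and the Sertoli and stromal medians of every list lie between 0.98 and 1.18.

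Across the 12 sums of a class and a library, each gene went with the mean of the other 9, with Pearson's r from 0.84 for *Atf3* to 0.99 for *Fos* on log2(CPM + 10). These points share libraries and the contrast of germ with somatic cells, and the values are a description. Outside the 10, the genes whose pattern was most like their mean were *Slc50a1*, *Slc25a4*, *Manea*, *Rpl39* and *Spop*, each with an r of 0.98.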

How the data were processed

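Droplet scRNA-seq of PD7 testes gave 1 library per genotype. The authors made the deposited counts, UMIs per gene and barcode without normalization, with Cell Ranger 6.0.2 against mm10. The study's own cell filter was applied (750 genes or more, mitochondrial share up to 10%). Counts were log-normalized in scanpy 1.11.5, and 2000 variable genes, without the stress genes, gave 20 components. These were corrected for the library by Harmony's algorithm and clustered by the Louvain method (igraph 0.11.9) at a resolution of 0.25, and germ cells again at 0.2. A cluster took the class of its highest-scoring markers. Doublets were marked with Scrublet and removed only in an alternative.

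UMIs were summed per library and class and divided by all UMIs of the class (CPM, per 1000000). Levels have exact Poisson intervals, and ratios exact conditional intervals (scipy 1.17.1). On simulated germ cell counts over 14448 genes, 98% of 2-fold higher and 96% of 2-fold lower genes were recovered, 0.933% of unchanged genes were called, and 95.7% of intervals held the true ratio. Both simulated libraries were Poisson draws from the control profile, without differences between mice, libraries or cells. These values check the counting interval only and give no error rate for comparing 1 library with 1 library. The genes, lists and limits were chosen with earlier results of these data known. Named genes beyond the 10 are the 3 highest and 3 lowest other immediate early genes in germ and Sertoli cells, the highest and lowest germ ratio of each further list, the markers and *Brca1*, and the 5 genes most like the mean of the 10. A result that this rule would name is not reported here. Gene positions come from GENCODE M21 and promoters from RefSeq, both on GRCm38.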

Additional observations from a re-analysis of the deposited data

Results flagged for a closer look

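In the Leydig cells, 2 of the 10 genes went against the other classes: *Junb* had a ratio of *Brca1* vKO to control of 0.868 and *Btg2* one of 0.799, with intervals below 1, while both lay above 1 in germ, Sertoli, stromal and myoid cells. *Atf3* had a ratio of 0.704 in endothelial cells, from 95 UMIs in each library, against intervals above 1 in germ and myoid cells. With 1 library per genotype these differences between classes were not tested.

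The barcodes removed by the filters, 735 of the control and 744 of *Brca1* vKO, entered no comparison. In their summed counts 8 of the 10 genes were higher in *Brca1* vKO by the same rule and 0 lower, beside 20.3% of all genes higher. *Fos* was at 274 and 707 CPM there (ratio 2.59) and *Ier2* at 137 and 313 CPM (ratio 2.28), whereas *Fosb* (ratio 1.11) and *Atf3* (ratio 0.82) did not pass.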

How the results depend on the processing

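No paired analysis was possible because each genotype had 1 library. Under 15 other settings and 2 more chosen after seeing the data, 1020 ratios of a gene in a class were recomputed, of which 1002 stayed on the same side of 1 and 15 moved by over 1.5 times. The germ cell ratio of all 10 genes stayed above 1 in each. Under the 15 settings it ran from 1.06 for *Fosb* to 2.82 for *Atf3*. Among the 2 added ones it reached 3.16 for *Atf3*, without the doublet-rich germ sub-clusters. The 6 genes higher in germ cells became 3 with classes set from markers without clusters, 3 with at most 5% mitochondrial UMIs and 1 with a 2-fold limit, and the 4 higher in germ cells only became 2, 1 and 1. The 3 genes higher in myoid cells became 1 with classes from markers, without batch correction, at resolution 0.5, with mitochondrial, ribosomal and haemoglobin genes left out of the total, and with cells thinned to 2000 UMIs, and 0 with a 2-fold limit. The 1 gene higher in endothelial cells became 0 without batch correction and with a 2-fold limit, 3 with each cell counted equally and 2 after thinning. In endothelial cells 1 gene was lower with classes from markers and 4 without batch correction, where *Fosb* reversed to 0.51. In Leydig cells 1 gene was higher with classes from markers and 1 lower with at most 5% mitochondrial UMIs. The cause of these changes was not tested. No share of all genes was computed under the 15 settings, and the shares given with the main counts do not carry over to them. Depth limited *Atf3* most, with 44 and 50 UMIs in SPG1-like cells.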
